A study of Oryctolagus cuniculus with 12 samples.

Results

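The genes described here are 10 genes commonly listed for fat cells, namely ADIPOQ, PLIN1, PLIN4, LEP, FABP4, CIDEC, LPL, LIPE, PNPLA2, and DGAT2. A gene was included when its name in the gene table equalled 1 of these names, which gave rows for 7 of the 10 among 20566 genes. PLIN1, PLIN4, and PNPLA2 were not analysed here. Of the 7, ADIPOQ, FABP4, LPL, LIPE, and DGAT2 passed the filter on low counts, which kept 14835 genes. LEP and CIDEC did not pass it and are given as counts.

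RNA was measured in whole conjunctiva of female Japanese white rabbits aged 12 to 14 weeks in 12 libraries. Trabeculectomy, an operation that lets aqueous humor drain under the conjunctiva, was done in the right eye, and the conjunctiva with its filtration bleb was taken 3 hours, 3 days, or 14 days later (TL3h, TL3d, TL14d, with 3 libraries in each). The operation included mitomycin C, an antiproliferative agent, and ended with a conjunctival injection of betamethasone, a glucocorticoid. Conjunctiva of unoperated left eyes gave the 3 libraries of the control group, and neither which left eye belongs to which right eye nor when it was taken is stated in the sources used here. The operated groups therefore differ from the control group in the surgery, the drugs applied to the operated eye, an ointment of erythromycin and colistin included, and the eye at once. Whether they also differ in the anesthetics, which were injected into muscle, is not stated.

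White adipocytes store triglyceride in a single large lipid droplet. They take up fatty acids that lipoprotein lipase releases from circulating lipoproteins, bind them with FABP4, and esterify them with enzymes such as DGAT2. They release them again by lipolysis, in which PNPLA2 and LIPE act in turn, while perilipins and CIDEC coat the droplet and ADIPOQ and LEP are secreted as hormones. None of these functions is exclusive to adipocytes, since LPL, LIPE, and DGAT2 are also made by other cells.

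Libraries held 27111276 to 38591374 counts in total, and a count of 0 allows up to 3 counts, or between 0.0712 and 0.124 CPM, the count scaled to library size. Levels are CPM with library sizes adjusted by the trimmed mean of M-values (TMM), unless given as FPKM, which also divides by transcript length. The adjustment factors lay between 0.768 and 0.783 in TL3h and between 1.03 and 1.13 in the other libraries. Without them the median of the log2 fold changes over all genes moved at 3 hours from 0.02 to −0.47, and that of TL3d against TL3h from −0.05 to 0.43, and the share of calls that were higher moved from 51% to 25% at 3 hours and from 49.2% to 80.5% for TL3d against TL3h. A pair of libraries, control replicate 2 and TL3d replicate 3, held skeletal muscle RNA, with 434 and 431 CPM summed over 7 muscle markers against 0.924 to 8.92 CPM in the other 10. TL14d replicate 1 correlated more closely with the control libraries (mean r = 0.962 across genes) than with its own group (mean r = 0.898).

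Calls over all genes depended on single libraries too. In place of 2608 genes, edgeR called at 3 days 491 without control replicate 1, 370 without control replicate 2, 449 without TL3d replicate 1, and 359 without TL3d replicate 2, and with both muscle libraries left out edgeR called 0 of 15000 genes, 4263 of which had an unadjusted p under 0.05. A call at 3 days that was lost in these fits, as given for single genes in the paragraphs that follow, was lost along with the calls of most or all other genes.

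Markers of adipocytes were mixed in these libraries. ADIPOQ, FABP4, and LPL were above the floor in all 12, whereas CIDEC, LEP, RETN, ADRB3, and PCK1 were at or near 0 in most. The lipid droplet gene CIDEC had 7, 33, and 6 counts in the control libraries and 0 counts in all 9 libraries after trabeculectomy. Every control library was thus above the floor of 3 counts and no operated library was. The leptin gene LEP had 0, 5, and 6 counts in the control libraries, 0, 2, and 2 in TL3h, 0 in all of TL3d, and 0, 0, and 2 in TL14d. Only 2 of the 12 libraries exceeded the floor for LEP, so no fold change is given for it. RETN, the gene of the hormone resistin, and ADRB3, a beta-adrenergic receptor of adipocytes, had 0 counts in all 12 libraries, and PCK1, an enzyme of glycerol synthesis in fat, had at most 5. Of the brown adipocyte list, UCP1, the uncoupling protein that makes heat, had at most 2 counts, while CIDEA averaged 25.2 ± 6.48 CPM, PPARGC1A 16.6 ± 2.93 CPM, and DIO2, a deiodinase that activates thyroid hormone, 9.45 ± 3.40 CPM in control conjunctiva (SD, n = 3). The libraries thus do not hold the full set of adipocyte markers. Which cells the RNA of the set came from was not tested, and the set is called by its leading genes ADIPOQ, LPL, and DGAT2 below.

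For CIDEC, the control mean of 0.38 CPM was at least 3.27-fold above the floor of the TL3h libraries (3 counts in each library, averaged over the group), so that CIDEC was at least 3.27-fold lower at 3 hours, at least 4.52-fold lower at 3 days, and at least 4.08-fold lower at 14 days. These limits rest mostly on control replicate 2. Without it they were 1.36-fold, 1.88-fold, and 1.70-fold. When no filter was applied, edgeR gave CIDEC an adjusted p of 0.0412 at 3 hours, 0.0682 at 3 days, and 0.431 at 14 days over 18170 genes. CIDEA, a paralog of CIDEC found in brown fat and sebaceous glands, was by contrast counted in every library, at 6.22 to 32.4 CPM. Its log2 fold change was −1.03 (SE 0.62, edgeR adjusted p = 0.256) at 3 days.

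**Figure D1:**
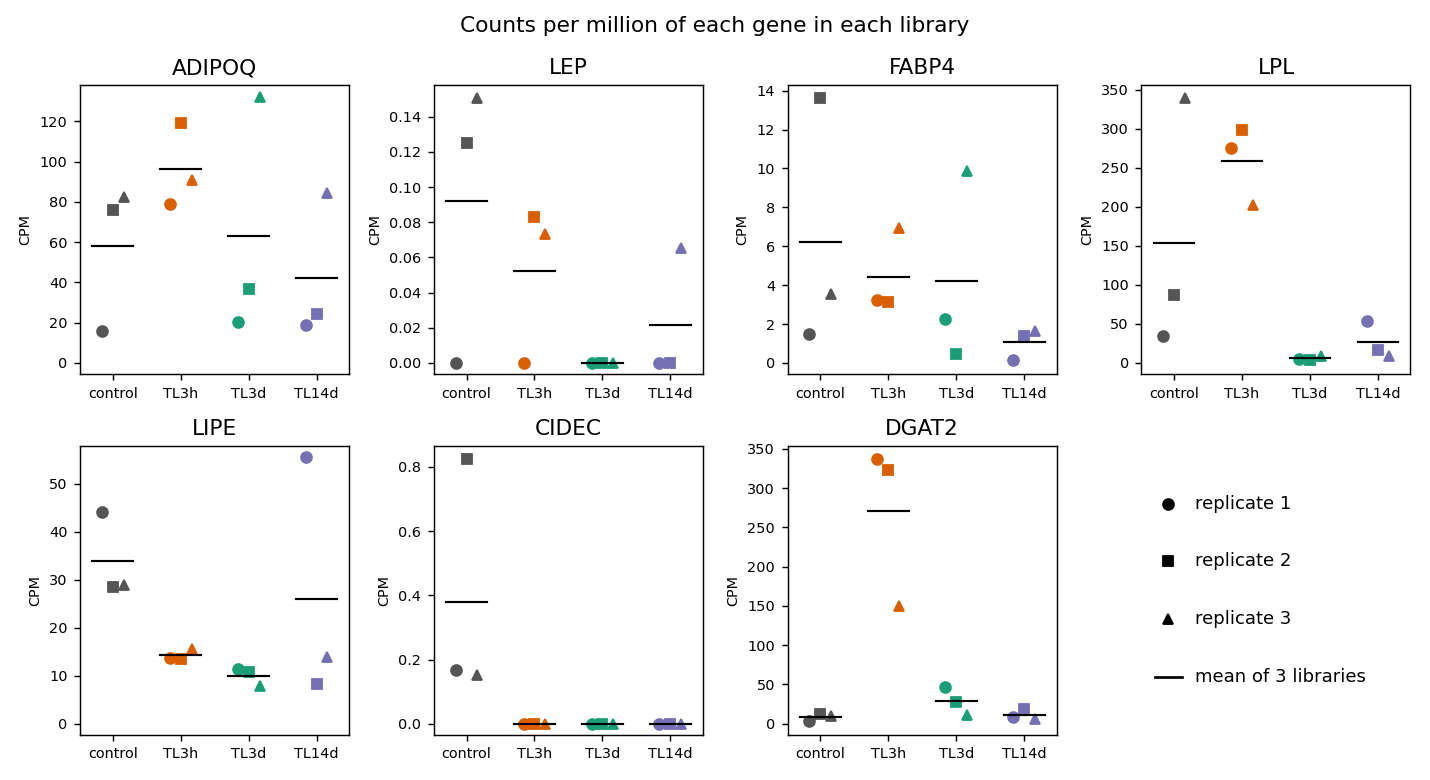
Level of the 7 genes with a row in each library, in CPM on a linear axis from 0 and with a separate range for each gene. Symbols are replicates, colours are groups, and lines are means of 3 libraries; DGAT2 was between 150.3 and 337 CPM in TL3h against 3.94 to 11.9 CPM in control libraries, LPL was between 4.28 and 9.55 CPM in TL3d, and CIDEC was at 0 in all 9 operated libraries.

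Of the 5 tested genes, DGAT2 was the 1 called higher against the control group. DGAT2 makes triglyceride by adding the last fatty acid to diacylglycerol. The gene (ID 100354838) lies on the minus strand of chromosome 1 at 140989878 to 141018236 of OryCun2.0. Its level was 3.94, 11.9, and 9.58 CPM in the control libraries, 337, 324, and 150.3 CPM in TL3h, 47.1, 28.1, and 11.5 CPM in TL3d, and 7.97, 18.2, and 5.47 CPM in TL14d. All TL3h libraries were far above all others, the TL3d libraries overlapped the control group in replicate 3 alone, and the TL14d libraries overlapped it.

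The mean level of DGAT2 was 8.47 ± 4.09 CPM (SD, n = 3) for the control group and 270.4 ± 104 CPM for TL3h, a 31.9-fold rise (log2 fold change 5.0, SE 0.72, edgeR quasi-likelihood test with Benjamini-Hochberg adjustment, adjusted p = 0.000429). It ranked 148 from the highest among the log2 fold changes of 14835 genes. DGAT2 was the 1 gene of 5 that passed the test at 3 hours, where 45.4% of all genes tested passed and 23.2% were higher, so the share of the set that passed was under the background. The rise passed the test in all 23 alternative settings, with log2 fold changes between 4.18 and 5.32. In bulk tissue, fewer cells of a type and less RNA per cell cannot be told apart, and the same holds for more of either.

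At 3 days DGAT2 averaged 28.9 ± 17.8 CPM, and its log2 fold change of 1.77 (SE 0.63) missed the threshold (edgeR adjusted p = 0.0744). It passed without TL3d replicate 3, 1 of the libraries with muscle RNA (edgeR adjusted p = 0.0440), and in DESeq2 (adjusted p = 0.02). From TL3h to TL3d DGAT2 fell 9.35-fold (log2 fold change −3.23, SE 0.66, edgeR adjusted p = 0.00387). At 14 days it averaged 10.6 ± 6.76 CPM, and its log2 fold change against the control group was 0.32 (SE 0.61, edgeR adjusted p = 0.879). A single transcript carried all of the DGAT2 count, and 25.0% of the libraries gave the gene a fractional count.

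Of the 5 tested genes, LPL was the 1 called lower against the control group. It encodes lipoprotein lipase, the secreted enzyme that hydrolyses triglyceride of circulating lipoproteins and that macrophages and muscle make besides adipocytes. The gene (ID 100340171) lies on the plus strand of chromosome 15 at 4554032 to 4582612. Its level was 34.9, 87.6, and 339.5 CPM in the control libraries, 276, 299, and 203 CPM in TL3h, 4.80, 4.28, and 9.55 CPM in TL3d, and 53.9, 16.8, and 8.85 CPM in TL14d. The 3 TL3d libraries were below every control library, control replicate 3 was above every TL3h library, and the TL14d libraries overlapped both the control and the TL3d groups.

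LPL had 154 ± 163 CPM (SD, n = 3) in control conjunctiva and 6.21 ± 2.91 CPM in TL3d, which was 24.8-fold lower (log2 fold change −4.63, SE 0.94, edgeR adjusted p = 0.0156). It ranked 60 from the lowest among 14835 genes. LPL was the 1 gene of 5 called at 3 days, where 17.6% of all genes passed and 7% were lower. The call was lost without TL3d replicate 1 (edgeR adjusted p = 0.0622), without TL3d replicate 2 (edgeR adjusted p = 0.065), and when both libraries with muscle RNA were left out (log2 fold change −5.36, edgeR adjusted p = 0.0657), where no gene at all passed. Without control replicate 3, which had the highest level, the log2 fold change was −3.31 (edgeR adjusted p = 0.0249).

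From TL3h to TL3d, LPL fell 41.7-fold (log2 fold change −5.38, SE 0.97, edgeR adjusted p = 0.00195), and this call held in all 23 alternatives. LPL and DGAT2 were the 2 genes of 5 called in that comparison, both lower, where 37.3% of all genes passed and 19% were lower. For these 2 and for LIPE the TL3d libraries were all below the TL3h libraries, which is 3 of 5 genes, where 54.7% of all genes did not overlap. At 3 hours LPL had a log2 fold change of 0.75 (SE 0.81, edgeR adjusted p = 0.483), with levels that overlapped the control group, and without control replicate 3 it was 2.03 (edgeR adjusted p = 0.0521). At 14 days it averaged 26.5 ± 24.0 CPM with a log2 fold change of −2.54 (SE 0.85, edgeR adjusted p = 0.389), which was −1.22 without control replicate 3 and −3.58 without TL14d replicate 1 (edgeR adjusted p = 0.536 and 0.0625). From TL3d to TL14d the log2 difference was 2.09 (SE 0.84, edgeR adjusted p = 0.18), and 1.05 without TL14d replicate 1.

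**Figure D2:**
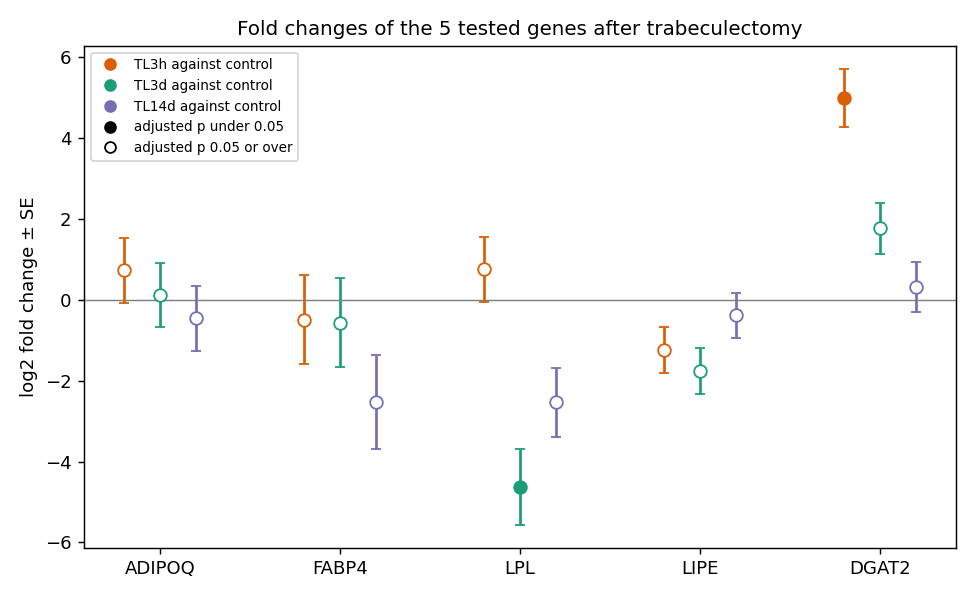
Log2 fold change against the control group, with standard error, of the 5 tested genes at each time after trabeculectomy (edgeR quasi-likelihood fit over 12 libraries). Filled points passed the threshold of 0.05 on the adjusted p, which only DGAT2 at 3 hours (5.0) and LPL at 3 days (−4.63) did.

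LIPE encodes hormone-sensitive lipase, which hydrolyses diacylglycerol in the cascade that releases stored fatty acids. The gene (ID 100339941) lies on unplaced sequence, at 278615 to 296086 of its contig on the minus strand. Its level was 44.1, 28.6, and 28.9 CPM in the control libraries, 13.6, 13.6, and 15.6 CPM in TL3h, 11.4, 10.8, and 7.79 CPM in TL3d, and 55.6, 8.31, and 14.0 CPM in TL14d. All TL3h and TL3d libraries were below all control libraries, and in TL14d replicate 1 stood above the control group while replicates 2 and 3 stood below it.

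The log2 fold change of LIPE was −1.25 (SE 0.57, edgeR adjusted p = 0.0983) at 3 hours and −1.76 (SE 0.57, edgeR adjusted p = 0.0593) at 3 days, and neither passed the threshold although the groups did not overlap. The groups of LIPE and DGAT2 did not overlap at 3 hours and those of LPL and LIPE did not at 3 days, which is 2 of 5 genes in each case, where 57.3% and 45.5% of all genes did not overlap. LIPE passed the threshold in 7 of 23 alternatives at 3 hours and in 5 of 23 at 3 days, among them the fits without TL14d replicate 1 (edgeR adjusted p = 0.00327 and 0.00323) and without TL14d replicate 2 (edgeR adjusted p = 0.0386 and 0.0245). At 3 days the fit with the replicate block was another of these. At 14 days the log2 fold change was −0.39 (SE 0.56, edgeR adjusted p = 0.838). Without TL14d replicate 1, the library that resembled the control group, it was −1.61 (edgeR adjusted p = 0.0233), in a fit that called 4.74% of all genes.

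ADIPOQ encodes adiponectin, a hormone that is used as a marker of mature adipocytes. The gene (ID 100009027) lies on the plus strand of chromosome 14 at 82535888 to 82546612. Its level was 16.02, 76.0, and 82.3 CPM in the control libraries, 79.1, 119, and 91.0 CPM in TL3h, 20.2, 36.7, and 132 CPM in TL3d, and 18.8, 24.3, and 84.2 CPM in TL14d. Each group overlapped every other one, and within the control, TL3d, and TL14d groups the highest library was 5.14, 6.54, and 4.48 times the lowest.

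ADIPOQ had log2 fold changes of 0.73 (SE 0.81, edgeR adjusted p = 0.496) at 3 hours, 0.12 (SE 0.80, edgeR adjusted p = 0.93) at 3 days, and −0.45 (SE 0.81, edgeR adjusted p = 0.868) at 14 days. The sign at 3 days rested on TL3d replicate 3, without which the log2 fold change was −1.03, and on control replicate 1, without which it was −0.33. At 14 days the value ranged from −1.43 to −0.10 over 23 alternatives. Of the ADIPOQ transcript counts, 99.6% fell on the longer of 2 transcripts.

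FABP4 encodes a cytosolic fatty acid carrier that is abundant in fat and is also made by macrophages and capillary endothelium. The gene (ID 100009416) lies on the minus strand of chromosome 3 at 97155361 to 97159722. Its level was 1.47, 13.6, and 3.56 CPM in the control libraries, 3.23, 3.11, and 6.91 CPM in TL3h, 2.27, 0.462, and 9.87 CPM in TL3d, and 0.168, 1.41, and 1.63 CPM in TL14d. Control replicate 2 and TL3d replicate 3, the libraries with muscle RNA, were the highest of all 12. Each operated group overlapped the control group.

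Fold changes of FABP4 passed no test, with log2 values of −0.49 (SE 1.10, edgeR adjusted p = 0.748) at 3 hours, −0.56 (SE 1.10, edgeR adjusted p = 0.742) at 3 days, and −2.53 (SE 1.17, edgeR adjusted p = 0.489) at 14 days. Without control replicate 2 the value was 0.81 at 3 hours, 0.74 at 3 days, and −1.23 at 14 days, so the direction at 3 hours and 3 days rested on that library. FABP5, a paralog made by epithelium and macrophages, was at 40.6 to 72.0 CPM in control conjunctiva and at 431, 129, and 380.3 CPM in TL3h, a log2 fold change of 2.40 (SE 0.41, edgeR adjusted p = 0.00117).

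At 14 days edgeR called 0 of the 5 genes and 0 of 14835 genes (0%). Without TL14d replicate 1 it called 716 of 15114 genes, LIPE among them. One of the 5, LPL, had an unadjusted p under 0.05 (0.0134), as did 1538 of all genes. DESeq2 called 367 of 14753 genes, and among the 5 it called LPL (log2 fold change −2.55, adjusted p = 0.0464). No group of the 5 genes was free of overlap with the control group at 14 days, where 11.1% of all genes were. From TL3d to TL14d edgeR also called 0 of the 5, where 2.24% of all genes passed and 27.4% did not overlap, although 3 of the 5 had an unadjusted p under 0.05, as did 22.6% of all genes. DESeq2 called 0 of the 5 in that comparison and 12.5% of all genes, and all 5 overlapped between the groups. Of the transcripts of the 5 genes, the single ones of DGAT2 at 3 hours and of LPL at 3 days (edgeR adjusted p = 0.0308) were called, where 28.3% and 5.13% of 26082 transcripts passed, and none at 14 days (0%). Tested over the 3 time points together, LPL (edgeR adjusted p = 0.00345) and DGAT2 (edgeR adjusted p = 0.000355) passed, where 52.4% of all genes did.

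Per unit length, the order of the genes changed with time. In the control group the mean FPKM was 39.1 ± 40.1 for LPL, 20.9 ± 13.0 for ADIPOQ, 11.4 ± 12.2 for FABP4, 8.47 ± 2.37 for LIPE, and 3.61 ± 1.77 for DGAT2 (SD, n = 3), and neighbours in this order overlapped except LIPE and DGAT2. The gene with the highest FPKM was LIPE in control replicate 1, ADIPOQ in replicate 2, and LPL in replicate 3. In all 3 TL3h libraries DGAT2 was the highest, followed by LPL and then by ADIPOQ.

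In TL3h the mean FPKM was 82.8 ± 30.9 for DGAT2, 48.5 ± 8.42 for LPL, 25.1 ± 4.94 for ADIPOQ, 5.83 ± 2.98 for FABP4, and 2.56 ± 0.26 for LIPE, and only DGAT2 and LPL overlapped among neighbours. In TL3d the means were 22.7 ± 21.2 for ADIPOQ, 12.5 ± 7.84 for DGAT2, 7.55 ± 8.85 for FABP4, 2.52 ± 0.54 for LIPE, and 1.62 ± 0.71 for LPL. LPL thus had the lowest or next to lowest FPKM of these 5 genes in every TL3d library. In TL14d the order differed between all 3 libraries, with LPL highest in replicate 1 and lowest of the 5 in replicate 3.

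**Figure D3:**
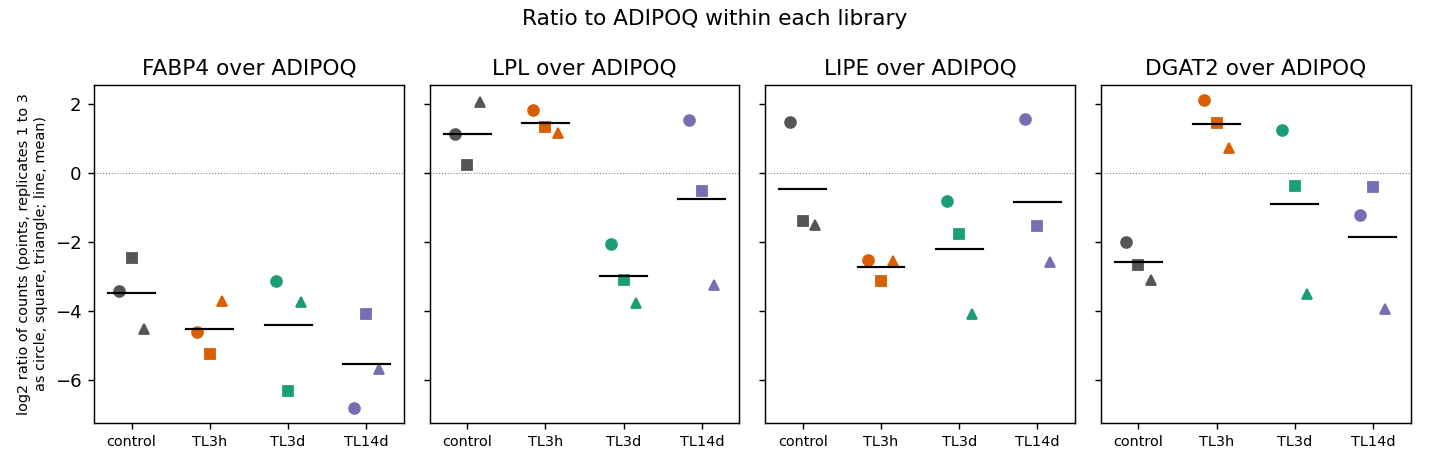
Log2 ratio of the counts of FABP4, LPL, LIPE, and DGAT2 to those of ADIPOQ in the same library, by group. Points are libraries (circle, square, and triangle for replicates 1, 2, and 3), lines are means, and a value of 0 means equal counts; LPL over ADIPOQ was between 0.21 and 2.04 in the control group and between −3.79 and −2.08 in TL3d.

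Within a library the ratio of 2 genes does not depend on library size, so each gene was also set against ADIPOQ. The log2 ratio of LPL to ADIPOQ was 1.12 ± 0.92 (SD, n = 3) in the control group, 1.43 ± 0.34 in TL3h, −2.99 ± 0.86 in TL3d, and −0.75 ± 2.39 in TL14d. LPL counts were thus above ADIPOQ counts in all 6 control and TL3h libraries and below them in all 3 TL3d libraries. The log2 ratio of DGAT2 to ADIPOQ was −2.60 ± 0.54 in the control group and 1.42 ± 0.69 in TL3h, with no overlap, and −0.90 ± 2.41 in TL3d and −1.87 ± 1.85 in TL14d.

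The linear ratio of LIPE to ADIPOQ was 2.75 in control replicate 1 and 2.96 in TL14d replicate 1, and between 0.0589 and 0.563 in the other 10 libraries. These 2 libraries had the highest LIPE and ADIPOQ levels of 16.02 and 18.8 CPM, the lowest of the 12, so the genes of the set did not vary as 1 block even among libraries of 1 group. The log2 ratio of FABP4 to ADIPOQ had group means between −5.53 and −3.49 with SDs between 0.78 and 1.68.

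The likeness of patterns was measured as the root mean square difference of log2 CPM, centred per gene, over 12 libraries. The log2 CPM of ADIPOQ itself varied with an SD of 1.07. Of 13248 genes, those closest to ADIPOQ were RGS5 (0.257), NXPE3 (0.414), TBX18 (0.418), GPX8 (0.434), JAM2 (0.458), PDE10A (0.471), FADS2 (0.474), and PPIC (0.475), of which 3 (RGS5, NXPE3, and TBX18) were also among the 8 highest by Pearson correlation. The other genes of the set lay farther off, at 1.18 for FABP4, 1.61 for LIPE, 1.98 for DGAT2, and 2.08 for LPL, all larger than the SD of ADIPOQ itself. The measure also grows with the spread of the other gene, so it does not rank likeness of shape alone. FABP4 varied with an SD of 1.61, and the 5 genes closest to it lay at 1.02 to 1.08. Its distance of 1.18 from ADIPOQ was thus small for FABP4.

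RGS5, a regulator of G protein signalling known as a pericyte marker, had 12.3, 56.3, and 82.1 CPM in the control libraries, 75.2, 109, and 75.7 CPM in TL3h, 11.1, 21.7, and 90.5 CPM in TL3d, and 13.5, 22.1, and 62.3 CPM in TL14d. In each of the 4 groups the library with the lowest RGS5 also had the lowest ADIPOQ. The points share library and depth, RGS5 was picked by this likeness, and the likeness is a description of these 12 libraries.

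**Figure D4:**
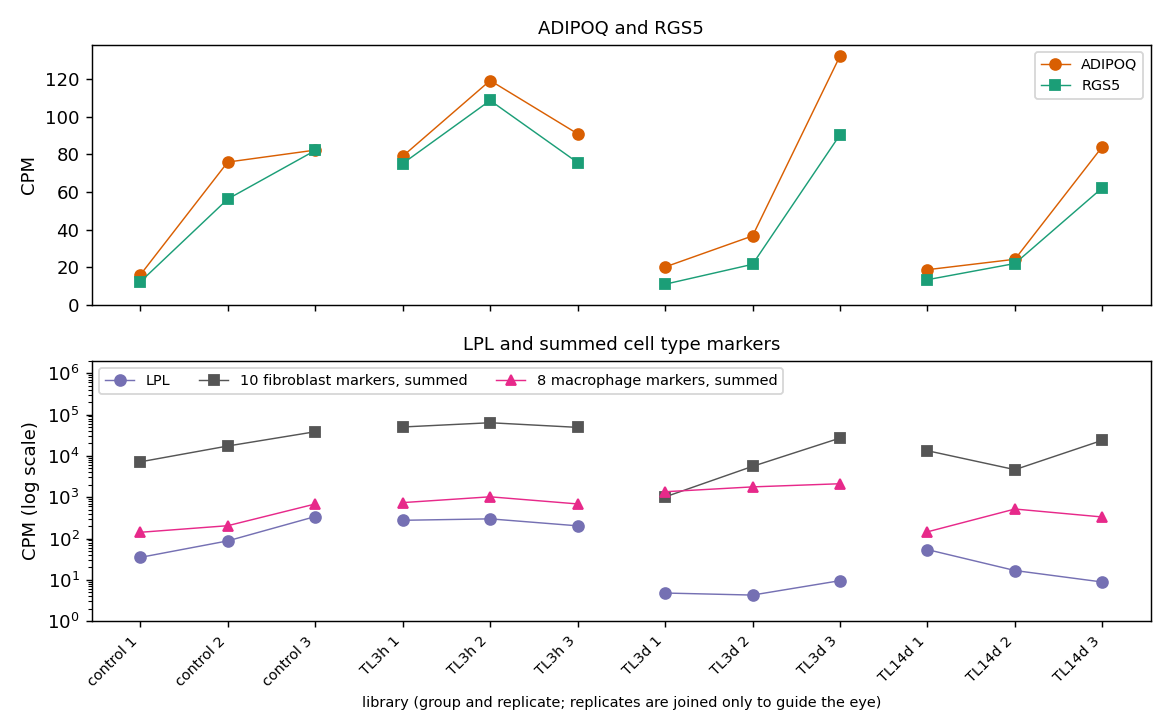
Levels by library, with group and replicate on the horizontal axis. The upper panel gives CPM of ADIPOQ and RGS5 on a linear axis, which rise and fall together from 11.1 to 132 CPM; the lower panel gives CPM on a log axis for LPL, 10 fibroblast markers summed, and 8 macrophage markers summed, with LPL at 4.28 to 9.55 CPM in TL3d where the macrophage sum was 1354 to 2114 CPM.

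Summed markers of other cells differed between groups as well. The sum of 8 macrophage markers was 141 to 684 CPM in the control group, 687 to 1021 CPM in TL3h, 1354 to 2114 CPM in TL3d, and 145 to 517 CPM in TL14d. Of these 8 markers, 2 were called higher and 1 lower at 3 hours (37.5%, under the 45.4% of all genes), and 4 were called higher at 3 days (50%, against 17.6%), namely CD68, MSR1, CD14, and CSF1R. These calls at 3 days were likewise lost with both muscle libraries left out. LPL was thus lowest in the group with the highest macrophage sum. The lowest TL3h sum, 686.5 CPM, was nearly that of control replicate 3, 684 CPM.

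The sum of 10 fibroblast markers was 7163 to 38350 CPM in the control group, 48860 to 63280 CPM in TL3h, 1014 to 26930 CPM in TL3d, and 4635 to 23820 CPM in TL14d, with 1 marker of 10 (DPP4) lower at 3 hours and at 3 days, a share under that of all genes at both times. COL1A2, a chain of type I collagen, had the highest mean of the 10 in each group (13320 CPM in the control group, 35820 CPM in TL3h, 8261 CPM in TL3d, and 10300 CPM in TL14d), so the sum mostly follows this gene. At 3 days the median log2 fold change of the list was −0.88, and only LUM and DPT had higher means than in the control group. MFAP5 was at 2.27 to 304.9 CPM against at least 381.9 CPM in control libraries (log2 fold change −3.41, SE 1.51, edgeR adjusted p = 0.133). LUM had a log2 fold change of 0.57 (SE 1.11, edgeR adjusted p = 0.742). Its TL3d libraries ranged from 71.7 to 2285 CPM with a median of 422 CPM, against a control mean of 624 CPM, so its higher mean rested on 1 library. The sum of 9 endothelial markers was 87.8 to 328 CPM in the control group, 666 to 1289 CPM in TL3h, 343 to 627 CPM in TL3d, and 113 to 350.4 CPM in TL14d, with 2 of 9 called higher at 3 hours (22.2%) and 0 at 3 days, both under the share of all genes. PECAM1 carried most of the higher sum at 3 hours, with a mean of 716 CPM in TL3h against 55.8 CPM in control conjunctiva (log2 fold change 3.68, SE 0.97, edgeR adjusted p = 0.0109). Its control libraries ranged from 5.91 to 135.5 CPM, so the size of this rise depends on single libraries. CDH5 (64.3 to 113 CPM against 2.04 to 31.8 CPM), CLDN5, and ERG were also above every control library in TL3h, and VWF and TIE1 had higher means. The median log2 fold change of the list was 0.87. KDR, TEK, and EMCN went the other way, with log2 fold changes of −0.82, −0.35, and −0.19 and no call. The part of these cells in the changes of LPL, DGAT2, and LIPE was not tested.

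Lists for epithelium, lipid-secreting glands, and brown fat were read in the same way. The sum of 7 epithelial markers was 6864 to 10300 CPM in the control group, 7685 to 12130 CPM in TL3h, 7682 to 18750 CPM in TL3d, and 10430 to 14440 CPM in TL14d, with 2 of 7 higher at 3 hours (28.6%, against 45.4% of all genes) and 1 at 3 days (14.3%, against 17.6%). The sum of 9 markers of meibomian and sebaceous glands was 77.0 to 117 CPM, 211 to 251 CPM, 179 to 216 CPM, and 73.4 to 138 CPM in the same order, with 3 higher and 1 lower of 8 tested at 3 hours (50%) and 1 higher and 2 lower at 3 days (37.5%). PLIN2 (37.9 ± 0.27 CPM in the control group, 128 ± 19.6 CPM in TL3h) and SOAT1 (31.1 ± 10.8 CPM and 67.9 ± 7.15 CPM) made up most of that sum. FADS2 (12.7 and 22.5 CPM), AWAT1 (0.232 and 0.819 CPM), and ELOVL3 (0.0659 and 0.562 CPM) also had higher means in TL3h. AWAT2, a wax synthase of these glands, fell at 3 hours (log2 fold change −2.08, SE 0.57, edgeR adjusted p = 0.0131) and at 3 days (−1.97, SE 0.56, edgeR adjusted p = 0.0386), and FAR2, which makes fatty alcohols for wax, fell at 3 days (−2.02, SE 0.54, edgeR adjusted p = 0.0327). The calls at 3 days were lost without any 1 control library and without TL3d replicate 1 or 2, that of AWAT2 also without TL3d replicate 3, TL3h replicate 3, or TL14d replicate 3, and all 3 calls were lost with both muscle libraries left out (edgeR adjusted p of up to 0.189 for AWAT2 and 0.113 for FAR2). The log2 fold change of FAR2 was −2.79 without TL3d replicate 3. The brown adipocyte list summed to 25.3 to 65.7 CPM over all libraries, with 1 higher (ELOVL3) and 1 lower (PPARGC1A) of 5 tested at 3 hours (40%) and 1 lower (PPARGC1A) at 3 days (20%). ELOVL3 had 0.0475 to 0.1 CPM in control libraries, near the floor, and 0.402 to 0.747 CPM in TL3h. It could pass the count filter only through TL3h, the group where it was high, so its call carries no weight. The same call counts among the higher ones of the gland list. DIO2 on this list averaged 28.2 ± 15.8 CPM in TL3d, a log2 fold change of 1.57 (SE 0.56, edgeR adjusted p = 0.0751). Of the 3 muscle markers tested, 0 were called at either time.

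Genes that act with the set in fat metabolism were read from 7 lists, which named 73 genes, of which 61 had a row and 57 were tested. At 3 hours 10 rose and 7 fell (29.8% called, against 45.4% of all genes), and at 3 days 4 rose and 9 fell (22.8%, against 17.6%). Their median log2 fold change was 0.18 and −0.15 at these times, against 0.02 and 0.00 for all genes. With library size alone the split at 3 hours was 7 higher and 17 lower. The count of 13 at 3 days was 2 without control replicate 1, 1 without control replicate 2, 7 without control replicate 3, 1 without TL3d replicate 1, 2 without TL3d replicate 2, and 0 with both muscle libraries left out, fits in which the calls over all genes dropped as well (the fit without control replicate 3 called 2215 of all genes).

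By list, 2 of 11 adipogenic regulators were higher and 2 lower at 3 hours, and 0 were higher and 3 lower at 3 days. In each of the 7 lists the share called at 3 hours, 0% to 44.4%, was under the 45.4% of all genes, and at 3 days the shares were 9.09% to 50%, against 17.6%. The adipokines and receptors had 2 higher of 7 at 3 hours and 1 lower at 3 days, the lipid droplet genes 2 higher and 1 lower of 7 and then 1 higher and 1 lower, and the lipolysis genes 2 higher and 2 lower of 9 and then 1 lower. The genes of fatty acid uptake had 1 higher of 6 and then 2 higher and 1 lower. Those of triglyceride synthesis other than DGAT2 had 0 of 6 called and then 1 higher and 1 lower, and those of lipogenesis and insulin response had 1 higher and 2 lower of 11 and then 1 lower. At 14 days edgeR called 0 of the 57, and DESeq2 called 2.

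At 3 hours the largest change was in PPARGC1A, a coactivator of mitochondrial and fatty acid oxidation genes. It had 17.3, 19.2, and 13.4 CPM in the control libraries and 1.998, 0.954, and 1.32 CPM in TL3h, and fell 11.6-fold (log2 fold change −3.54, SE 0.46, edgeR adjusted p = 0.000263). CEBPB (log2 fold change 2.63, SE 0.39) and CEBPD (1.60, SE 0.39) from the list of adipogenic regulators rose. PPARG, the master regulator of adipocyte differentiation, averaged 1.38 ± 0.68 CPM in control conjunctiva and 2.66 ± 0.44 CPM in TL3h and did not pass (log2 fold change 0.94, SE 0.67, edgeR adjusted p = 0.287). Whether these rises belong to adipogenesis was not tested.

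PLIN2, the ubiquitous perilipin that coats small droplets in many cells, had 37.6, 38.0, and 38.1 CPM in the control libraries, 117, 150.2, and 116 CPM in TL3h, 146, 119.9, and 119 CPM in TL3d, and 33.2, 78.1, and 68.1 CPM in TL14d. It rose 3.37-fold at 3 hours (edgeR adjusted p = 0.000619) and 3.38-fold at 3 days (edgeR adjusted p = 0.00971), and the operated libraries at both times were all above all control libraries. The call at 3 days was lost with both muscle libraries left out, at a log2 fold change of 1.81, in the fit that called no gene. Among the other genes called at 3 hours, the monoglyceride lipase MGLL (log2 fold change 1.91, SE 0.40), the insulin receptor substrate IRS1 (1.42, SE 0.49), and the caveolar protein CAV1 (1.33, SE 0.31) rose. The droplet protein CIDEB (−1.59, SE 0.41) and the beta-adrenergic receptor ADRB1 (−1.54, SE 0.48) fell. The edgeR adjusted p of these 5 and of CEBPB and CEBPD lay between 0.000477 and 0.0356. The calls of ADRB1 and IRS1 were lost without control replicate 1 or 2, and in some other fits, with an edgeR adjusted p of up to 0.0803 for ADRB1 and an adjusted p of up to 0.132 (limma on FPKM) for IRS1. That of CAV1 was lost on FPKM with either pseudocount (limma adjusted p = 0.0524 and 0.0541).

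**Figure D5:**
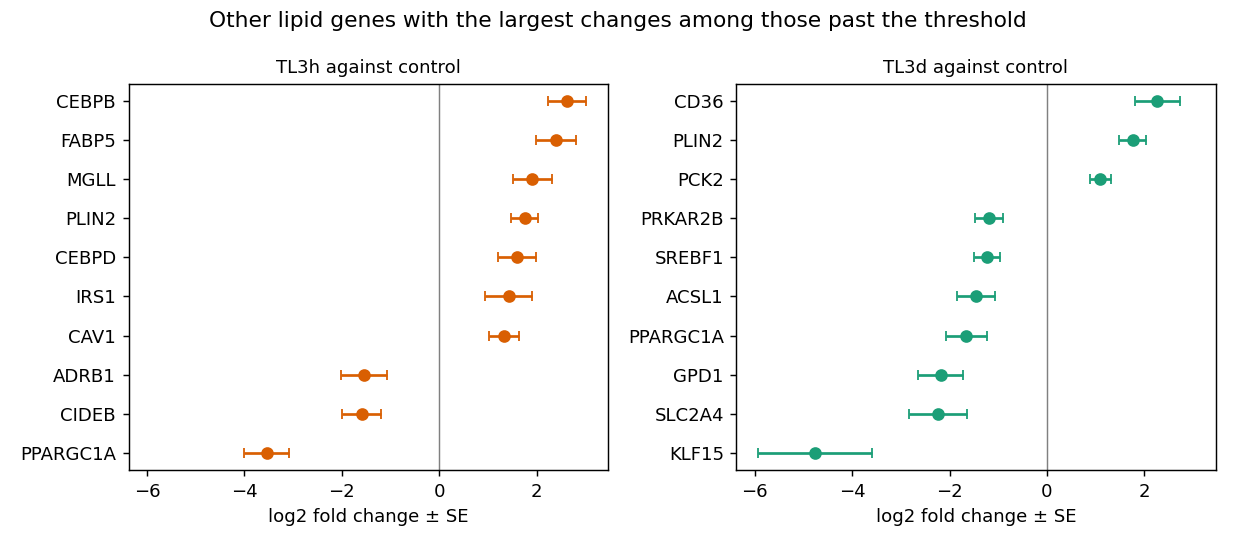
Log2 fold change with standard error of the 10 genes from the 7 lipid lists with the largest change among those past the threshold, at 3 hours and at 3 days against the control group (edgeR). PPARGC1A was lowest at 3 hours (−3.54) and KLF15 at 3 days (−4.77), and PLIN2 and PPARGC1A are the genes named at both times.

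At 3 days KLF15, a transcription factor of adipocytes and muscle that glucocorticoids induce, had 0.375, 0.185, and 0.626 CPM against 3.92, 3.45, and 25.3 CPM in the control libraries. Its level was 27.2-fold lower (log2 fold change −4.77, SE 1.17, edgeR adjusted p = 0.0246), and the call was lost without control replicate 1, 2, or 3, without TL3d replicate 1 or 2, and with both muscle libraries left out. The log2 fold change was −3.22 without control replicate 3. At 3 hours KLF15 overlapped the control group, at 3.54 to 7.14 CPM.

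CD36, the fatty acid transporter of adipocytes and macrophages, had 3.51, 6.95, and 8.20 CPM in the control libraries and 28.8, 22.6, and 38.3 CPM in TL3d, with no overlap. It rose 4.80-fold at 3 days (log2 fold change 2.26, SE 0.46, edgeR adjusted p = 0.0157), and fell 11.6-fold from TL3d to TL14d, where it had 2.49, 2.28, and 2.93 CPM (edgeR adjusted p = 0.0203). This fall did not pass without TL3d replicate 1 or 2, without TL14d replicate 1 or 3, or with both muscle libraries left out (log2 differences of −3.71 to −3.32, edgeR adjusted p of 0.0515 to 0.0855). The rise at 3 days did not pass without control replicate 1, control replicate 2, or TL3d replicate 1, nor with both muscle libraries left out, with log2 fold changes of 1.98 to 2.35. CD36 and LPL, which act in turn in fatty acid uptake, thus moved in opposite directions at 3 days.

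The insulin-responsive glucose transporter SLC2A4 (log2 fold change −2.23, SE 0.60), the glycerol-3-phosphate dehydrogenase GPD1 (−2.18, SE 0.46), the acyl-CoA synthetase ACSL1 (−1.46, SE 0.39), the lipogenic factor SREBF1 (−1.23, SE 0.27), the protein kinase A subunit PRKAR2B (−1.20, SE 0.29), and PPARGC1A (−1.66, SE 0.43) fell at 3 days. PCK2, the mitochondrial form of phosphoenolpyruvate carboxykinase, rose (1.09, SE 0.21). Their edgeR adjusted p lay between 0.0147 and 0.0327. Each of these 7 lost its call without control replicate 2, TL3d replicate 1, or TL3d replicate 2, and with both muscle libraries left out. All but GPD1 lost it without control replicate 1, SLC2A4 and ACSL1 without control replicate 3, and ACSL1 without TL3d replicate 3, and the highest edgeR adjusted p of these fits was 0.129. Each kept its direction in those fits, in which 0 to 491 of all genes were called except without control replicate 3 or TL3d replicate 3.

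The receptors of the hormones in the set were measured in all groups. ADIPOR1, a receptor of adiponectin, rose 1.92-fold at 3 hours (log2 fold change 0.94, SE 0.18, edgeR adjusted p = 0.00183). From TL3h to TL3d all 7 tested adipokines and receptors passed, where 37.3% of all genes did. The other lipid lists had 27.3% to 50% called there, and the 57 tested genes of all lipid lists 43.9%. This list was singled out after its values were seen. In that comparison RARRES2, the gene of chemerin, was 7.72-fold lower (log2 fold change −2.95, SE 0.64), RBP4, a retinol carrier, was 10-fold lower (−3.33, SE 1.10), and the leptin receptor LEPR was 11.9-fold lower (−3.57, SE 1.21). CDH13 (−1.12, SE 0.28), NAMPT (−0.80, SE 0.12), and ADIPOR1 (−0.67, SE 0.18) were lower by less, and ADIPOR2 was higher (0.62, SE 0.20). The edgeR adjusted p of the 7 lay between 0.000569 and 0.0401. With library size alone the direction of each was the same, while ADIPOR1, CDH13, LEPR, and NAMPT no longer passed (edgeR adjusted p = 0.389, 0.0654, 0.0525, and 0.0635). RARRES2 passed in all 23 alternatives. RBP4 and LEPR each lost the call without control replicate 2, TL3h replicate 1 or 2, TL3d replicate 1 or 2, or TL14d replicate 3, RBP4 also without TL3h replicate 3, with edgeR adjusted p of up to 0.121 and 0.159. Their sizes rested on single libraries, as the log2 difference of RBP4 was −4.72 without TL3d replicate 3, and that of LEPR was −2.36 without TL3h replicate 1 and −4.76 without TL3d replicate 3. ADIPOR1 lost it without TL3h replicate 2 or 3 or both muscle libraries (up to 0.0602), ADIPOR2 without TL3h replicate 1 or 2, TL3d replicate 1 or 2, or with the replicate block (up to 0.107), and CDH13 without TL3d replicate 2 (0.0509). On FPKM, limma did not call ADIPOR1, LEPR, or NAMPT with either pseudocount.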

How the data were processed

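RNA-seq values of 12 libraries were used. The authors mapped reads to OryCun2.0 with STAR 2.6.0c and made values per gene and transcript with GeneData Profiler Genome. They deposited estimated counts (23.4% of values per gene are fractions) and FPKM values, which the authors had divided by length and depth. Positions are those of the gene table.

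Counts were rounded, filtered with filterByExpr (minimum count 10, minimum total 15), normalized by TMM, and tested in edgeR 4.0.16 (R 4.3.3) in 1 quasi-likelihood fit of 12 libraries without covariates, with Benjamini-Hochberg adjustment and a threshold of 0.05. P-values measure the spread between samples labelled as replicates. The study describes the operated groups as averages of 3 eyes, with 1 eye operated in each animal, and the animals behind the control libraries are not stated in the sources used here. Within groups no library was a copy of another (lowest chi-square per gene 81). Reads carried no molecular identifiers, so floors cover counting error only. On simulated TL3h data with 14835 genes, the fit recovered 126 of 200 changed genes, 36 of 40 at 32-fold and 3 of 40 at 2-fold. Only these 200 genes were changed there, whereas 45.4% of genes were called at 3 hours in the data. The adjustment was therefore stricter in the simulation, and its recovery is not that of the reported test. Alternatives used limma 3.58.1, DESeq2 1.42.0, other filters and scalings, FPKM with pseudocounts of 0.1 and 1, a replicate block, and libraries left out.

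The members and the lists were chosen with earlier results of these data known. Per comparison, the 10 called lipid genes with the largest change and a mean of at least 1 CPM are named, and the adipokine genes of TL3d against TL3h, PPARG, CIDEA, FABP5 as a paralog, and the marker genes were named after their values were seen.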

Additional observations from a re-analysis of the deposited data

Results flagged for a closer look

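Of the 5 genes tested, 2 changed differently against the control group at 3 days than at 3 hours by the test of TL3d against TL3h in the same edgeR fit, a share near the 37.3% of all genes that did. For LPL the log2 fold change was 0.75 at 3 hours and −4.63 at 3 days, a difference of −5.38 (SE 0.97, edgeR adjusted p = 0.00195), and all 3 TL3d libraries were below all 3 TL3h libraries. For DGAT2 it was 5.0 at 3 hours and 1.77 at 3 days, a difference of −3.23 (SE 0.66, edgeR adjusted p = 0.00387), again with no overlap. Both comparisons with the control group share the same 3 control libraries, which enter the direct test through the dispersion estimate of the fit, not through the difference itself.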

How the results depend on the processing

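Of 209 recomputed counts of calls, 181 were within 1.5 times the reported count, or 0 where that was 0. Counts of 0 at 14 days could hardly move, and some refits left out a library of a group not compared. The total therefore says little of the counts at 3 days. Of 575 recomputed fold changes of the 5 genes, 538 kept their direction and side of the threshold, 3 lost the call, 16 gained it, and 18 changed sign. At 3 hours the count of members called was 2 in place of 1 with library size alone, in DESeq2, without the filter, with only the groups compared, and on FPKM with either pseudocount, through LIPE or, without the filter, CIDEC. At 3 days it was 3 in DESeq2, 2 with only the groups compared, 2 with the replicate block, and 0 with both muscle libraries left out, an alternative chosen after seeing the data, as it was for the 13 wider lipid genes (0). At 14 days DESeq2 called 1 member and 2 wider lipid genes. Transcripts of members called at 3 hours were 2 in place of 1 with library size alone. Leaving out 1 library at a time gave 1 to 2 members at 3 hours, 0 to 2 at 3 days, 0 to 1 at 14 days, 2 to 3 over all times, and 2 throughout for TL3d against TL3h. For the wider lipid genes it gave 15 to 21 at 3 hours, 1 to 17 at 3 days, and 0 to 6 at 14 days.

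Changes of sign concerned fold changes that had not passed the test. For ADIPOQ at 3 days the log2 value was −0.00929 in limma, −0.000842 on FPKM with a pseudocount of 1, −0.0366 with the replicate block, −0.788 with both muscle libraries left out, and −1.03 to 0.541 with 1 library left out. For ADIPOQ from TL3d to TL14d it was 0.575 without both muscle libraries and −1.55 to 0.574 with 1 library left out. For FABP4 at 3 hours it was 0.81 without both muscle libraries, and with 1 library left out it was −1.01 to 0.81 at 3 hours and −2.17 to 0.74 at 3 days. From TL3h to TL3d FABP4 was at 0.369 with library size alone and at −1.68 to 0.459 with 1 library left out. At 14 days leaving out 1 library gave −1.61 to 0.0368 for LIPE and −0.335 to 0.644 for DGAT2. The cause was not tested.

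Of 18 pairs of libraries with the same replicate number, 8 correlated above 0.1 in their deviations from the group means (−0.147 to 0.481), so not every pair did, and the labels name no shared animal or day for a number. The samples were therefore kept unpaired, although 9 of 12 libraries correlated best with their own number, a hint of pairing from the data and not from the design. With the replicate block, LIPE passed at 3 days (log2 fold change −1.72, edgeR adjusted p = 0.0466), which gave 2 calls, and no other call of a member changed. The depth limits LEP and CIDEC, which had 17 and 46 counts over all libraries.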

Other observations

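The measure of likeness used for ADIPOQ was also computed for the other 4 tested genes, a choice made after their levels were seen. The genes closest to DGAT2, whose log2 CPM varied with an SD of 2.12, were LOC100346811 (0.474), annotated as the adaptor protein SAMSN-1, DUSP5 (0.617), an inducible phosphatase of ERK kinases, FOSB (0.649), an AP-1 subunit of the immediate early class, and PLK3 (0.668). DUSP5 had 3.17 to 5.32 CPM in the control group, 105 to 129 CPM in TL3h, 15.2 to 22.4 CPM in TL3d, and 4.07 to 14.7 CPM in TL14d. That is the order of groups seen for DGAT2, as follows from its choice by likeness.

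For FABP4 (SD 1.61), the closest genes were RYR1 (1.02), the calcium release channel of skeletal muscle, MYOM1 (1.04), a protein of the sarcomere, SNCG (1.07), a synuclein, and CD6 (1.07) and CD5 (1.08), surface receptors of T cells. RYR1 was highest in control replicate 2 (22.0 CPM) and TL3d replicate 3 (16.7 CPM), the libraries with muscle RNA, and at 1.60 to 8.08 CPM in the other 10. For LPL (SD 2.28) the closest were PCDH15 (0.648) and VIT (0.706), and for LIPE (SD 0.88) they were IVNS1ABP (0.29) and MAGIX (0.317). IVNS1ABP had its highest levels in control replicate 1 (947 CPM) and TL14d replicate 1 (922 CPM), the same libraries in which LIPE was highest. No test was run on these patterns, and since the genes were picked by likeness, shared high libraries follow from the choice.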
